A study of Arabidopsis thaliana with 8 samples.

Results

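Glutathione S-transferase (GST) transcripts were examined in Arabidopsis thaliana seedlings during the memory phase that follows a priming heat stimulus. The members were all probe sets whose deposited annotation contained the words glutathione S-transferase, which gave 48 of 22746 probe sets on the Affymetrix ATH1 array. A probe set is a group of short probes that reads the transcript of 1 gene, or of several very similar genes. Of these, 45 read 1 gene each and 3 read 2 genes each, and together they covered 50 genes. By class, 27 probe sets belonged to the plant-specific tau class (GSTU), 10 to phi (GSTF), 3 to theta (GSTT), 2 to zeta (GSTZ) and 1 to a microsomal, membrane-bound type. The other 5 were AT4G19880, AT5G44000, AT5G44990, AT5G45020 and AT2G46080 (BPS2), whose annotation mentions a GST C-terminal-like domain. They were in none of the class lists used and are called C-terminal domain proteins here. Whether they are full GSTs was not examined.

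All samples were whole seedlings of the wild-type accession Col-0, grown on agar medium with sucrose and treated at an age of 5 days. The priming stimulus began with 1.5 h at 37 °C and, after 1.5 h back at 22 °C, ended with a 44 °C step of 45 min, and primed seedlings were collected 4, 8, 24 or 48 h into the memory phase that followed under normal growth conditions. Unprimed seedlings, the controls without that stimulus, carry the same labelled times. Each of the 8 conditions was 1 array of RNA from pooled seedlings in 1 experiment, so no single difference carries a replicate error, and the question addressed was how the family's transcript levels differed between primed and unprimed seedlings along the memory phase. The heat was given in the dark, and the sources used here do not say whether unprimed seedlings were also darkened, so heat and darkness cannot be told apart.

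GSTs join the thiol of glutathione, a small sulfur-containing peptide, to reactive or toxic compounds, which are then moved into the vacuole by ATP-binding cassette transporters. Tau and phi enzymes are the large plant classes and include detoxifying enzymes for herbicides and oxidised lipids as well as carriers of plant pigments and enzymes of defence compound synthesis. Many of their genes are switched on by chemical stress through TGA transcription factors, which bind as-1-like promoter elements together with the GRAS protein SCL14. Plants also have lambda GSTs and dehydroascorbate reductases, which use glutathione to reduce their substrates instead of forming conjugates.

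Values are deposited log2 levels on a scale that begins at 2.0, called the floor here, and a difference is always the primed minus the unprimed log2 value at 1 time, so 1 log2 unit is a 2-fold difference. Array medians lay between 6.99 and 7.08, and 26.3 to 26.9% of probe sets on an array were at the floor. The 4 shoot markers stood at 13.28 or above on every array, and 4 of 5 root markers were above the floor, with the nitrate transporter NRT2.1 at the floor throughout. In whole seedlings, fewer cells of a type and less RNA per cell cannot be told apart. The unprimed 24 h array stood apart in seed storage protein transcripts: 7 of 8 markers differed at least 2-fold at 24 h, all with the primed value below, and their summed linear level was 33 in primed and 2628 in unprimed seedlings. At 4 h, 5 of the 8 differed in the same direction, with sums of 34 and 315, while the sums were 56 in both at 8 h, and 35 and 104 at 48 h. The equal sums at 8 h hold CRA1 at -1.98 and SESA2 at 2.60. CRA1 read 6.37, 4.75, 7.53 and 6.19 in unprimed and 2.65, 2.77, 2.33 and 2.69 in primed seedlings, so its difference was not particular to 24 h. Leaving the unprimed 24 h array out of a 24 h difference is possible only by borrowing other controls. The member counts at 24 h and some members are given with both. The other 24 h values, among them all those of the other lists, use that array.

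Of the 48 probe sets, 41 were above the floor on at least 1 array. The 7 at the floor on all arrays (14.6%, against 23% of all probe sets) were those of GSTU3, GSTU12, GSTU15, GSTU21, GSTZ2 and AT5G44990 and the probe set of GSTT2 alone. The median difference over the 48 was -0.010, -0.005, 0.035 and -0.030 at the 4 times, beside a median of 0.00 over all probe sets at each time. These medians include the 7 members at the floor. The members' interquartile range ran from -0.71 to 0.08 at 4 h and from -0.47 to 0.37 at 8 h, beside -0.32 to 0.24 and -0.22 to 0.29 over all probe sets. It ran from -0.03 to 0.54 at 24 h and from -0.18 to 0.00 at 48 h, beside -0.15 to 0.12 and -0.11 to 0.07. These gaps were not tested. The spread between members was wider than that median shows, since 19 of the 48 (39.6%) differed at least 2-fold at some time, compared with 27.2% of all probe sets, a gap that was not tested.

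At 4 h, 3 members had a primed level at least 2-fold above the unprimed one (9.36% of all probe sets did) and 6 had one at least 2-fold below (9.93% of all probe sets). At 8 h, 5 members were higher (7.33% of all) and 7 lower (7.91%). The balance at 24 h was 6 higher (2.76% of all) to 2 lower (1.67%). With the unprimed 8 and 48 h arrays as the control it was 3 (1.79% of all) to 2 (1.23%). By 48 h the counts were 2 higher (0.747%) and 1 lower (0.932%). As a share of the 48 members, these counts are 6.25 and 12.5% at 4 h, 10.4 and 14.6% at 8 h, 12.5 and 4.17% at 24 h, and 4.17 and 2.08% at 48 h.

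**Figure D1:**
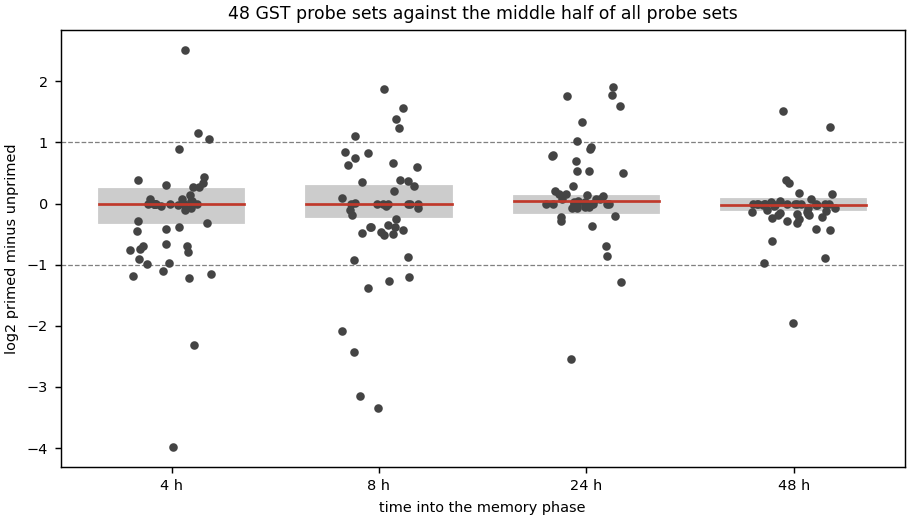
Each point is 1 of the 48 GST probe sets, the vertical axis is the log2 primed minus unprimed difference and the horizontal axis is the time into the memory phase. Red lines are the members' medians, grey boxes the interquartile range of all 22746 probe sets, and dashed lines the 2-fold limits, with points reaching from -3.98 to 2.51 at 4 h and from -1.95 to 1.52 at 48 h around a median near 0.00.

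No member was at least 2-fold higher at all 4 times (0.303% of all probe sets), and none was at least 2-fold lower at all 4 (0.11%). At 3 of the 4 times, 1 member was at least 2-fold higher (0.827% of all probe sets met this at 3 or 4 times) and 2 were lower (0.558%). A limma fit of the mean priming effect over all 4 times, in which time was a blocking term and the residual had 3 degrees of freedom, gave 0 members past a Benjamini-Hochberg adjusted p of 0.05, and 0 of all probe sets (0%), with a smallest adjusted p among members of 0.45. At an unadjusted p under 0.05 there was 1 member higher (4.33% of all probe sets) and 5 lower (4.59%), namely GSTU17 against GSTF4, GSTU13, GSTU14, GSTU23 and GSTU26. Time points are not replicates, so the errors of this fit also hold any change of the effect over time.

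GSTU17 (AT1G10370), a tau enzyme known in Arabidopsis for its part in light signalling and in drought and salt responses, was the member most often at least 2-fold higher after priming. Its log2 value in primed seedlings was 9.26, 9.54, 9.59 and 8.98 at 4, 8, 24 and 48 h, and in unprimed seedlings 6.75, 8.91, 7.83 and 7.46. Every primed array stood above every unprimed one, which held for no other member (2.84% of all probe sets), and the primed values spanned only 0.61 while the unprimed values spanned 2.16. The primed level was 5.70-fold higher at 4 h, 1.55-fold at 8 h, 3.39-fold at 24 h and 2.87-fold at 48 h, with a mean difference of 1.60 ± 0.36 (SE, limma, adjusted p = 0.48). The 8 h difference was set against the highest of the unprimed values and the 4 h difference against the lowest, and against the mean of all unprimed arrays the 4 h difference was 1.52 on the log2 scale in place of 2.51. Its direct neighbour on chromosome 1, GSTU18, had differences of 0.39, -1.20, 0.28 and -0.19.

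GSTU14 (AT1G27140) was the strongest opposite case. Primed seedlings gave 6.19, 3.36, 3.62 and 4.41 at the 4 times, and unprimed seedlings 7.18, 6.70, 6.16 and 6.36. The unprimed values spanned 1.02 through the series, and the primed one was lowest at 8 h and closer to the unprimed one again by 48 h. Only the primed 4 h value, just above the lowest unprimed one, kept the groups from separating completely. The primed level was 1.99-fold lower at 4 h, 10.1-fold at 8 h, 5.82-fold at 24 h and 3.86-fold at 48 h, with a mean difference of -2.21 ± 0.46 (SE, limma, adjusted p = 0.47). With a floor of 4, GSTU14 differed by -2.70 at 8 h and -2.16 at 24 h, in place of -3.34 and -2.54. At 24 and 48 h it was the 1 member whose primed value lay at least 2-fold below the lowest of the 4 unprimed arrays (0.198 and 0.149% of all probe sets), so these late differences do not hang on which unprimed array serves as the control. GSTU13, 1 protein-coding gene away, differed by -0.31, -0.48, -0.37 and -0.02.

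GSTU26 (AT1G17190), GSTU23 (AT1G78320) and GSTF4 (AT1G02950) were also lower in primed seedlings at every time, as were GSTF9, GSTF11, GSTU13 and GSTU27. The share of all probe sets lower at every time, by any amount, is not given here. GSTU26 read 9.32, 7.84, 9.02 and 9.34 in primed and 10.29, 9.92, 9.88 and 9.95 in unprimed seedlings, so the groups did not overlap, and the gap was widest at 8 h, at 4.23-fold. GSTF4 was the other member with all primed below all unprimed values (2.63% of all probe sets), but its differences were small, between -0.43 and -0.21. GSTU23 gave 4.21, 4.35, 4.68 and 5.38 in primed against 5.36, 5.62, 5.97 and 5.69 in unprimed seedlings. It was 2.22-, 2.41- and 2.45-fold lower at 4, 8 and 24 h, and at 48 h the primed value had come within 0.31 of the unprimed one. The mean differences with their limma SE were -1.13 ± 0.31 for GSTU26 (adjusted p = 0.53), -1.0 ± 0.22 for GSTU23 (adjusted p = 0.48) and -0.31 ± 0.05 for GSTF4 (adjusted p = 0.45).

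**Figure D2:**
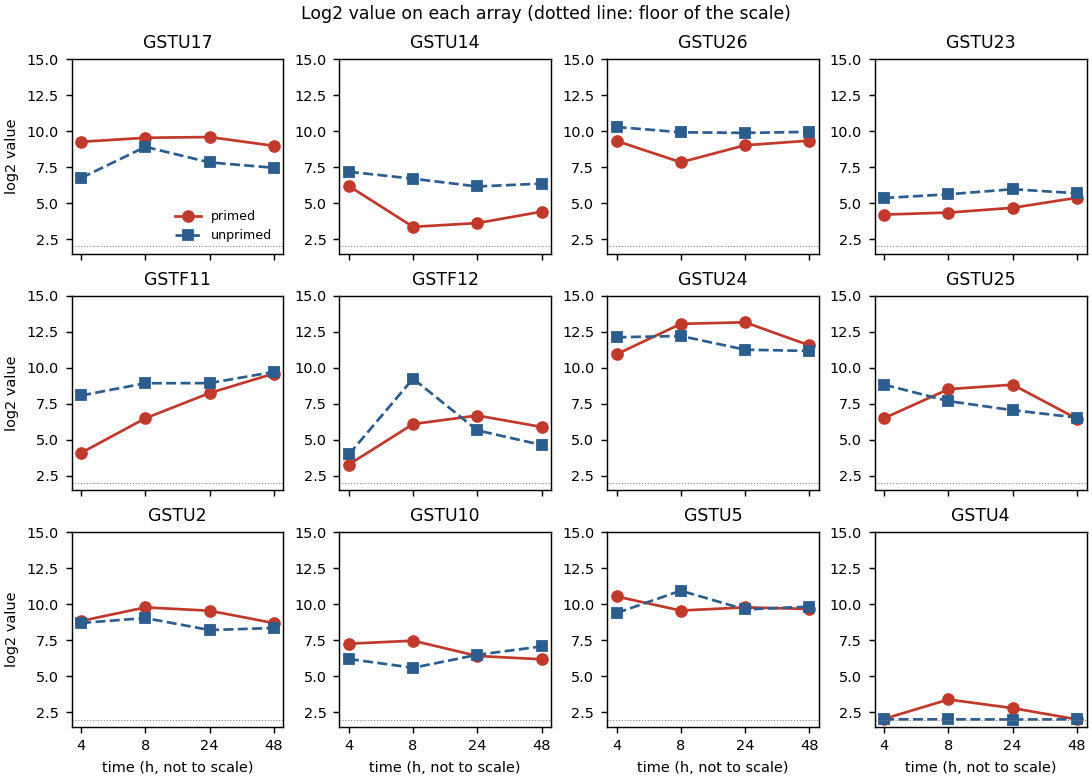
Log2 value on each of the 8 arrays for 12 members, with primed arrays as red circles, unprimed arrays as blue squares, time in hours on the horizontal axis (not to scale) and the floor of 2.0 as a dotted line. GSTU17 keeps primed above unprimed throughout, GSTU14, GSTU26, GSTU23 and GSTF11 keep it below, and the GSTU24 and GSTU25 lines cross between 4 and 8 h.

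GSTF11 and GSTF12 are phi enzymes tied to a metabolic product rather than to detoxification, and they had some of the largest early differences. GSTF11 (AT3G03190) is expressed with the genes of aliphatic glucosinolates, the methionine-derived defence compounds of the cabbage family, and is a proposed glutathione-conjugating enzyme of that route. In primed seedlings it read 4.09, 6.49, 8.24 and 9.59, and in unprimed seedlings 8.07, 8.92, 8.93 and 9.71. The primed value was higher at each later time and ended close to the unprimed one, being 15.8-fold lower at 4 h, 5.39-fold at 8 h, 1.61-fold at 24 h and 1.09-fold at 48 h. At 4 and 8 h they lay at least 2-fold below every unprimed array, as 4 members did at 4 h (5.72% of all probe sets) and 4 at 8 h (3.35%). The limma mean of -1.80 ± 0.82 (SE, adjusted p = 0.60) averages over a difference that closed with time.

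Other genes of aliphatic glucosinolate synthesis were also lowest relative to the control at 4 h. All 6 probe sets of that list were at least 2-fold lower in primed seedlings at 4 h, 4 were at 8 h, 1 at 24 h and 0 at 48 h, with list medians of -2.22, -1.59, -0.29 and -0.22. Of all probe sets, 9.93, 7.91, 1.67 and 0.932% were at least 2-fold lower at the 4 times. The probe set shared by CYP79F1 and CYP79F2, the cytochromes P450 that convert chain-elongated methionine, differed by -5.42, -2.23, -0.32 and -0.29. BCAT4 and MAM1, which start and extend the methionine chain, differed by -2.81 and -2.15 at 4 h and by -2.29 and -1.46 at 8 h. CYP83A1, the next oxidase of the route, differed by -2.30 at 4 h and -1.73 at 8 h. GSTU20 (AT1G78370), a tau enzyme also proposed for glucosinolate synthesis, had smaller differences of -0.79, -0.87, 0.03 and -0.11. The root list moved in part at the same times, with 3 of 5 markers at least 2-fold lower in primed seedlings at 4 h, 2 at 8 h and 0 later. Their summed linear levels were 943 in primed and 1928 in unprimed seedlings at 4 h, but 1493 and 1432 at 8 h. At 24 h the sums were 1181 and 1465, and at 48 h 1009 and 1439. The part of the root markers in the glucosinolate values was not tested.

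GSTF12 (AT5G17220), known as TRANSPARENT TESTA 19, is needed to bring anthocyanins into the vacuole. Its primed values were 3.28, 6.09, 6.68 and 5.89, and its unprimed values 3.98, 9.24, 5.65 and 4.64. The unprimed 8 h array was far above the other 3 unprimed arrays, and the 8.88-fold lower primed level at 8 h was set against it. The difference then changed sign, with a primed level 2.04-fold higher at 24 h and 2.38-fold higher at 48 h. Against the mean of all unprimed arrays the differences were 0.21 at 8 h, 0.80 at 24 h and 0.01 at 48 h, so no 2-fold difference remained at those times, while the 4 h difference was -2.60. With the unprimed 8 and 48 h arrays as the 24 h control, a choice made after the data were seen, the 24 h difference was -0.26.

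Anthocyanin genes were also highest on the unprimed 8 h array. Of the 5 probe sets of the list, 4 were at least 2-fold lower in primed seedlings at 8 h and 0 differed 2-fold in either direction at 4, 24 or 48 h. The share of all probe sets at least 2-fold lower at 8 h was 7.91%. DFR, dihydroflavonol reductase, read 2.34, 7.88, 3.85 and 3.68 in unprimed and 2.0, 4.25, 4.69 and 4.25 in primed seedlings at the 4 times. The pigment regulator PAP1 read 5.48 in the unprimed 8 h array, against 2.01 and 2.02 at 4 and 24 h without priming. With 1 array per condition, the 8 h difference in GSTF12 and in the pigment genes rests on the unprimed 8 h array.

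GSTU24 (AT1G17170) and GSTU25 (AT1G17180), adjacent tau genes whose Arabidopsis enzymes can conjugate the explosive trinitrotoluene, were at least 2-fold lower in primed seedlings at 4 h and at least 2-fold higher at 24 h. GSTU24 gave 10.93, 13.04, 13.15 and 11.55 in primed and 12.11, 12.20, 11.25 and 11.16 in unprimed seedlings. GSTU25 gave 6.50, 8.51, 8.82 and 6.46 in primed and 8.82, 7.68, 7.05 and 6.54 in unprimed seedlings. In both genes the primed level was higher at 8 and 24 h than at 4 h, the unprimed level was lower at 24 and 48 h than at 4 and 8 h, and the groups overlapped. The primed level of GSTU24 was 2.27-fold lower at 4 h and 3.73-fold higher at 24 h, and that of GSTU25 was 4.99-fold lower at 4 h and 3.41-fold higher at 24 h. Both 24 h differences stayed past 2-fold under the borrowed 24 h control. Against the mean of all unprimed arrays the 24 h differences were 1.47 and 1.3, and the 4 h difference was -0.75 for GSTU24, no longer past 2-fold, and -1.02 for GSTU25.

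Such a change of direction was found in 4 members (8.33%), GSTF12, GSTU24, GSTU25 and GSTU5, against 1.34% of all probe sets, and 3 of them went from at least 2-fold lower at 4 or 8 h to at least 2-fold higher at 24 or 48 h (0.765% of all). These shares were not tested against each other. Against the mean of all unprimed arrays the count was 1, GSTU25, beside 0.928% of all probe sets. GSTU5 (AT2G29450), also of the tau class, ran the other way. Its primed values were 10.54, 9.56, 9.78 and 9.67 and its unprimed values 9.39, 10.94, 9.64 and 9.83, so it was 2.22-fold higher at 4 h and 2.60-fold lower at 8 h, with late values close together. Against the mean of all unprimed arrays the differences were 0.59 and -0.39, and neither was past 2-fold.

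Genes known to respond to the same chemical stresses as the tau GSTs were read from a separate list. Of 8 probe sets of detoxification companions, 5 were at least 2-fold lower and 0 higher in primed seedlings at 4 h, while 3 were higher and 1 lower at 8 h, 4 higher and 0 lower at 24 h, and 1 higher at 48 h. Over all probe sets, 9.36% were higher and 9.93% lower at 4 h, and 7.33 and 7.91% at 8 h. At 24 h the shares were 2.76 and 1.67%, and 0.747% were higher at 48 h. CYP81D11, a cytochrome P450 of xenobiotic responses, differed by -3.14, 0.46, 1.68 and 0.95. UGT74E2, a glucosyltransferase of the auxin precursor indole-3-butyric acid, differed by -2.83, 0.79, 3.79 and 1.63. UGT73B4, a further glucosyltransferase, differed by -1.31, 1.58, 1.33 and -0.05. CYP81D8, another stress-responsive P450, read 7.27 in primed seedlings at 8 h and 3.91 at 24 h, and its differences were -0.58, 5.20, 1.85 and 0.08. Its unprimed values at 8, 24 and 48 h, 2.07, 2.06 and 2.02, were close to the floor. UGT75B1 was lower early, by -2.07 at 4 h and -1.16 at 8 h, without a later reversal. Lower at 4 h and higher later, both past 2-fold, were 3 of the 8, CYP81D11, UGT74E2 and UGT73B4. The probe set shared by OPR2 and OPR1 differed by -1.57, -0.12, 0.08 and -0.19, and ABCG40 was at the floor on all arrays. These genes and GSTU24 and GSTU25 were compared on the same arrays, so the values stand side by side and are not separate evidence.

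Some other members were at least 2-fold higher in primed seedlings at 1 or 2 times. GSTU10 (AT1G74590) read 7.26, 7.47, 6.41 and 6.18 in primed and 6.20, 5.59, 6.49 and 7.07 in unprimed seedlings. It was 2.08-fold higher at 4 h and 3.68-fold higher at 8 h, the highest difference of any member at 8 h, and the order was turned at 48 h, where the difference was -0.89. Against the mean of all unprimed arrays the GSTU10 differences were 0.92 at 4 h, 1.13 at 8 h and -0.16 at 48 h. Centring on the reference genes gave 0.94 at 4 h, so under both settings the 4 h difference was below 2-fold. GSTF14 (AT1G49860) had differences of 0.90, 1.23, 0.69 and -0.97, with values that were higher at 48 h than at 4 h in both groups, 8.55 against 7.25 in primed and 9.52 against 6.35 in unprimed seedlings. Against the mean of all unprimed arrays its differences were -0.26, 0.43, 0.64 and 1.04, so the sign turned at 4 and 48 h. The microsomal member AT1G65820 was past 2-fold at 8 h only, at 2.16-fold. Against the mean of all unprimed arrays that difference was 0.94 on the log2 scale, below 2-fold. This member stood between 11.69 and 11.99 on 7 arrays and at 12.80 on the primed 8 h array. Likewise the shared probe set of GSTF6, which takes part in camalexin synthesis, and the defence-induced GSTF7 reached 13.15 on the primed 8 h array against 11.58 unprimed, with differences of 0.44, 1.57, 0.50 and -0.29. Like GSTU13, GSTU18, GSTU27 and the theta members, it is outside the rule for named genes, and these were named after their values were seen.

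GST genes often lie beside each other in the genome, and the likeness of neighbours was not tested. By the order of genes in the RefSeq annotation, 36 of 50 GST genes lay in 12 runs with at most 3 protein-coding genes between members, where the 50 leave out the C-terminal domain proteins and add GSTU19, GSTF10 and the lambda genes. In the GSTU24, GSTU25 and GSTU26 run the first 2 crossed from lower at 4 h to higher at 24 h and the last was lower throughout. In the 7-gene run from GSTU7 to GSTU1 on chromosome 2, GSTU2 (AT2G29480) read 8.84, 9.78, 9.55 and 8.69 in primed and 8.70, 9.04, 8.21 and 8.35 in unprimed seedlings, higher in primed at every time and past 2-fold at 24 h, at 2.53-fold. GSTU1, at the end of that run, differed by -0.10, 0.09, 0.78 and 0.16. GSTU4 (AT2G29460) was within 0.05 of the floor on all 4 unprimed arrays and on the primed 4 and 48 h arrays, and read 3.39 and 2.79 on the primed 8 and 24 h arrays. It was the 1 member whose primed value at 8 h lay at least 2-fold above all unprimed arrays (3.61% of all probe sets), a comparison made against the floor, and no member met this at 4 h (6.69%), 24 h (0.668%) or 48 h (0.312%). GSTU3, its neighbour, was at the floor throughout, and GSTU6 and GSTU7 differed by less than 2-fold at every time.

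**Figure D3:**
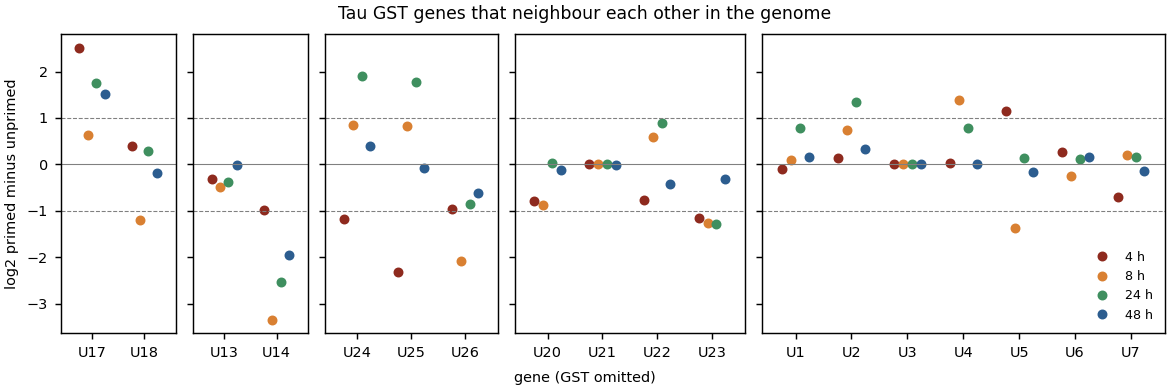
Log2 primed minus unprimed differences (vertical axis) of tau GST genes that neighbour each other, 1 panel per run, with colours for 4, 8, 24 and 48 h and dashed lines at the 2-fold limits. GSTU17 lies between 0.63 and 2.51 beside GSTU18 between -1.20 and 0.39, and GSTU14 lies between -3.34 and -0.99 beside GSTU13 between -0.48 and -0.02.

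GSTU28 (AT1G53680) was past 2-fold at 24 h only. It read 4.26, 4.03, 3.61 and 3.31 in primed and 4.22, 3.65, 2.01 and 3.48 in unprimed seedlings. The 24 h difference of 1.60 was set against an unprimed value at the floor, on the array with the high seed storage transcripts. With the unprimed 8 and 48 h arrays as the control at 24 h, 3 members were at least 2-fold higher (1.79% of all probe sets), GSTU17, GSTU24 and GSTU25, while GSTF12, GSTU2 and GSTU28 were not, and 2 were lower, GSTF11 and GSTU14 (1.23% of all), while GSTU23 no longer was.

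A few members were lower early and level later. GSTU16 (AT1G59700) read 8.38, 9.94, 10.09 and 10.20 in primed and 9.59, 10.87, 9.94 and 10.24 in unprimed seedlings, 2.31-fold lower at 4 h and within 0.15 at 24 and 48 h. AT4G19880, a member by its GST C-terminal domain annotation, read 11.97, 12.68, 13.15 and 12.91 in primed seedlings while the unprimed values stayed between 13.03 and 13.08. It was 2.14-fold lower at 4 h. GSTF9 differed by -0.90, -0.47, -0.22 and -0.14, closing over time and never past 2-fold.

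The theta and zeta enzymes showed small differences. GSTT1, a peroxisomal GST with peroxidase activity, lay within 0.38 at every time, and the probe set shared by GSTT3 and GSTT2 between -0.41 and 0.54. GSTZ1, the maleylacetoacetate isomerase of tyrosine breakdown, differed by 0.08, 0.37, 0.07 and -0.02, and this still placed it among the 10 highest mean differences. Among the C-terminal domain proteins, AT5G44000, AT5G45020 and BPS2 had no 2-fold difference.

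**Figure D4:**
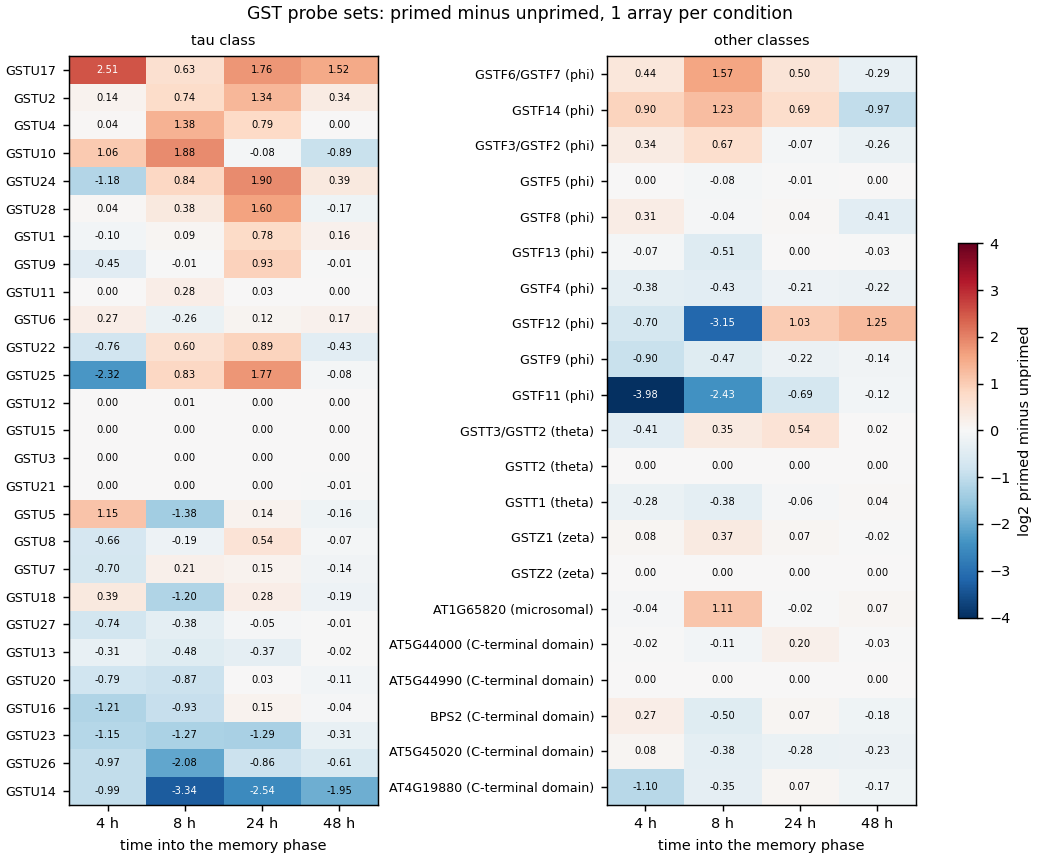
Log2 primed minus unprimed differences of all 48 GST probe sets, printed in each cell and coloured from blue (lower in primed) to red (higher), with columns for 4, 8, 24 and 48 h, and members ordered within each class by their mean difference. GSTU17 heads the tau class with a mean of 1.60 and GSTU14 closes it with -2.21, while the 7 members at the floor show 0.00 or values within 0.01 of it.

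Unprimed seedlings also changed between harvests, which bears on every difference. From 4 to 8 h, 4 members were at least 2-fold higher on the later unprimed array, GSTF12, GSTU5, GSTU16 and GSTU17 (2.02% of all probe sets), and GSTU25 was lower (1.35% of all). From 8 to 24 h, 1 member was higher, the shared probe set of GSTF3 and GSTF2 (3.11% of all), and 4 were lower, GSTF12, GSTU5, GSTU17 and GSTU28 (3.46%). From 24 to 48 h, GSTF14 and GSTU28 were higher (1.55% of all) and GSTF12 was lower (1.17%). The unprimed arrays are single arrays too, so harvest time and array cannot be told apart.

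Members of the wider family that the annotation words did not take were read from separate lists. GSTU19, an abundant tau enzyme, differed by 0.17, 0.24, 0.31 and 0.04, and GSTF10 by -0.29, -0.09, -0.44 and -0.33. The lambda enzyme GSTL1 read 5.72, 5.34, 6.20 and 6.62 in primed and 7.48, 7.83, 7.28 and 7.24 in unprimed seedlings. Its groups did not overlap and it was at least 2-fold lower at 3 times, with differences of -1.76, -2.49, -1.08 and -0.62. GSTL2 and GSTL3 had no 2-fold difference. Of the 3 dehydroascorbate reductases, which return oxidised ascorbate to its reduced form, only DHAR3, the plastid enzyme, passed 2-fold, at -1.47 at 8 h.

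The supply of glutathione was read from 11 genes of synthesis and turnover, of which 1 was at least 2-fold higher and 4 lower in primed seedlings at 4 h, and 0 in either direction at 8, 24 and 48 h. Over all probe sets the shares at 4 h were 9.36% higher and 9.93% lower. GGCT2;1, a cyclotransferase that breaks glutathione down, was higher at 4 h, with 5.80 primed against 3.47 unprimed. OXP1, the oxoprolinase that acts after it, differed by -1.13, -0.57, -0.73 and -0.05, and GSH2, glutathione synthetase, by -1.02 at 4 h. Glutathione reductases GR1 and GR2 had no 2-fold difference. Among 8 glutathione peroxidases, 0 were past 2-fold at 4 and 8 h and 1 was higher at 24 and at 48 h. That gene was GPX7, a plastid peroxidase, at 4.26, 6.38, 9.16 and 7.28 in primed and 3.72, 6.61, 6.89 and 5.29 in unprimed seedlings.

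Conjugate export and regulation had both signs at 4 h. Of 4 transporter probe sets, 1 was at least 2-fold higher and 2 lower at 4 h, and 1 higher at 8 h. ABCC1, a vacuolar pump for glutathione conjugates, differed by -2.10 at 4 h and by -0.31, 0.08 and -0.02 later, and ABCC4 by -1.46 at 4 h. The probe set shared by ABCC3 and NAP5 differed by 1.72, 1.67, 0.45 and 0.47. Of the 8 TGA and SCL14 probe sets, 2 were higher and 1 lower at 4 h, 2 higher at 8 h, 1 higher at 24 h and 0 at 48 h. The shares of all probe sets were 9.36% higher and 9.93% lower at 4 h, 7.33% higher at 8 h and 2.76% higher at 24 h. SCL14 differed by 1.55 at 4 h, and TGA7 differed by -1.27 then. TGA3 differed by 1.03 and 1.09 at 4 and 8 h, and TGA4 by 1.16 at both 8 and 24 h.

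**Figure D5:**
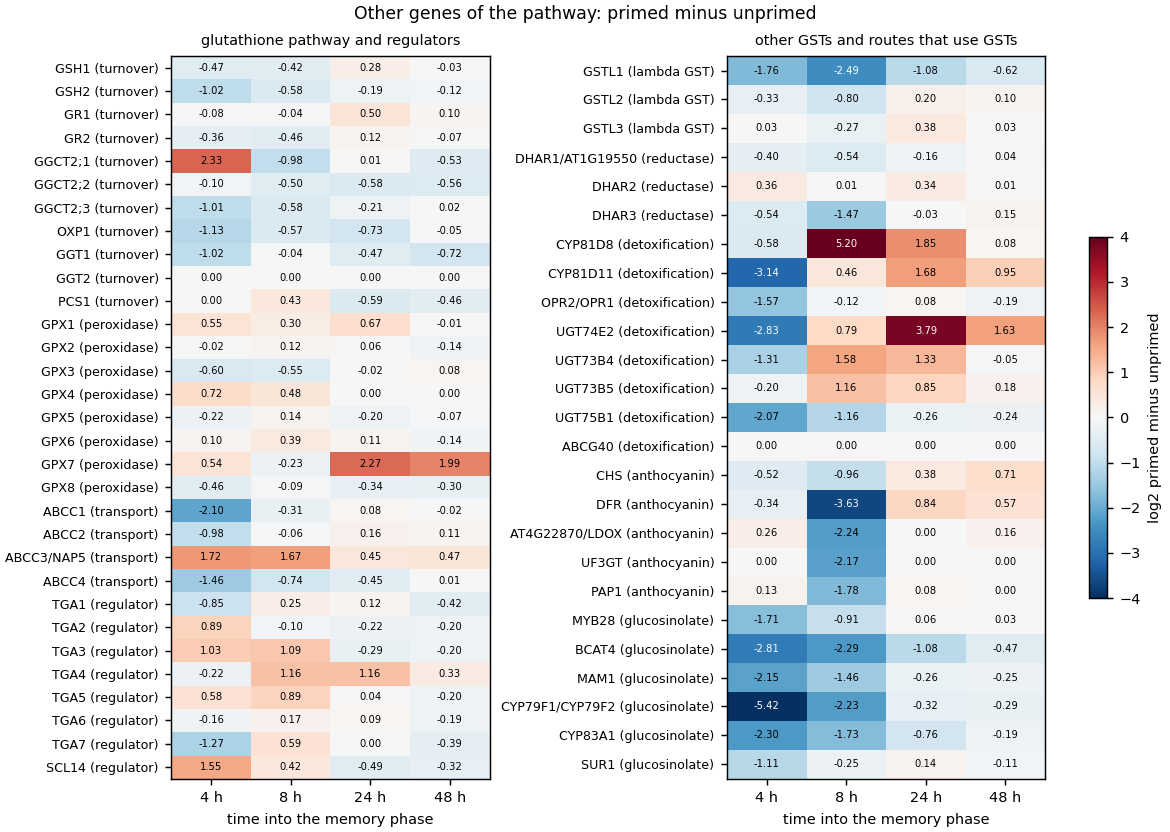
Log2 primed minus unprimed differences of other glutathione pathway genes, regulators, further GSTs and routes that use GSTs, printed in each cell with the list of each gene in brackets, columns for 4, 8, 24 and 48 h, and colours that saturate at 4 log2 units. The glucosinolate genes are lowest at 4 h, from -5.42 to -1.11, the anthocyanin genes at 8 h, from -3.63 to -0.96, and the detoxification genes reach 5.20 at 8 h and 3.79 at 24 h.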

How the data were processed

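The deposited values were log2 expression levels of 8 Affymetrix ATH1 arrays, normalized together by the authors; GCRMA and RMA are listed as tools in the submitters' processing notes, and their versions and the genome build are not given in the sources used here. A second deposited table held the same values (largest difference 0.0). The authors' own columns of primed over unprimed comparisons were not used. After 64 control probe sets and 1 line without a probe set were left out, 22746 probe sets remained, of which 21194 were assigned to 1 gene, 1078 to several and 474 to none. Symbols and gene order came from RefSeq's annotation of TAIR10.1, whose coordinates were not used. A value within 0.05 of 2.00 was taken as the floor.

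Differences were primed minus unprimed log2 values per time, counted at 2-fold. The mean effect was fitted with limma 3.58.1 in R 4.3.3 on all 22746 probe sets with time as a block and Benjamini-Hochberg adjustment. The fit was tested on simulated data without time effects. The pass rule covered the size of the estimates and not the share of effects called. The number of arrays (1 per condition) limits the precision. Named members were those above the floor, of 1 gene, whose mean difference was among the 10 highest or 10 lowest, whose difference at a time was among the 3 highest or 3 lowest, or past 2-fold the same way at 3 or 4 times; in other lists, genes past 2-fold at 2 or more times and the largest mean in size, and others were named after their values were seen. Members and lists were chosen with earlier results of these data known. Alternatives were quantile normalization, centring on 8 reference genes, a floor of 4, single-gene probe sets, the mean of the unprimed arrays as control, the second table, other limma settings and leaving out each time.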

Additional observations from a re-analysis of the deposited data

Results flagged for a closer look

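In 4 members the primed minus unprimed log2 difference passed 2-fold in opposite directions at different times. GSTF12 was at -3.15 at 8 h, 1.03 at 24 h and 1.25 at 48 h. GSTU25 was at -2.32 at 4 h and 1.77 at 24 h, and its neighbour GSTU24 at -1.18 at 4 h and 1.90 at 24 h. GSTU5 was at 1.15 at 4 h and -1.38 at 8 h. With 1 array per condition, the difference between the times was not tested in any of them. Against the mean of all unprimed arrays only GSTU25 passed 2-fold both ways, at -1.02 at 4 h and 1.3 at 24 h.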

How the results depend on the processing

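Each primed array was also set against the average of all 4 unprimed arrays. At 4 h, 1 member was then at least 2-fold higher (9.56% of all probe sets) and 9 were lower (10.1%). At 8 h, 6 were higher (6.26%) and 4 lower (7.16%). At 24 h, 3 were higher (1.75%) and 1 lower (0.914%). At 48 h, 2 were higher (1.2%) and 2 lower (1.2%). GSTU17 was the 1 member higher at all 4 times. GSTF12 at 8 h reversed to 0.21, and GSTF14 turned from 0.90 to -0.26 at 4 h and from -0.97 to 1.04 at 48 h. A 24 h control from the unprimed 8 and 48 h arrays was chosen after seeing the data. With it, 3 members were higher at 24 h (1.79% of all probe sets) and 2 lower (1.23%), and GSTF12 reversed to -0.26. Centring on the reference genes gave 1 member lower at all 4 times and moved the median of all probe sets to -0.12 at 4 h and -0.14 at 24 h. The reference gene UBC21 itself differed by 0.55, 0.59, 1.12 and 0.14 at the 4 times, past 2-fold at 24 h. Leaving out each time in turn gave 0 to 1 members higher and 0 to 1 lower at all remaining times. The shares of all probe sets for such counts over all times are not given here for these other settings. Of 30 differences of named members past 2-fold, 12 were lost and 8 gained against that average, and 2 and 0 with a floor of 4, where GSTU4 at 8 h and GSTU28 at 24 h went to 0.00. Under quantile normalization and under centring, all 88 differences of named members stayed within 0.39 of the values given, with 1 call lost and 1 gained under quantile normalization and 2 lost and 4 gained under centring. Member medians stayed between -0.13 and 0.045 over all settings. limma called 0 members in every setting run, while of all probe sets it called 8 without the time block and 1 without the probe sets at the floor. The limma fit paired primed with unprimed arrays by time, and the labels give no replicate numbers to pair by. The causes of these shifts were not tested.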
